A study of Mus musculus with 12 samples.

Results

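The 35 genes described here encode the enzymes and carriers that take glucose to pyruvate and pass pyruvate on to lactate or into the mitochondrion, with 3 enzymes of glycogen. They were chosen by symbol, for their place in the pathway and not for their values, out of 57132 features of the count table. Earlier results of these data were known when the choice was made. The symbols match 36 features, because a short second feature also carries the name Aldoa and was left out. All 35 genes passed the filter on low counts, which kept 13902 features. RNA sequencing was performed on the striatum of 6 mice labelled TAAR5-KO and 6 mice labelled wild type (WT), all 10 months old. They were C57Bl/6 littermates of both sexes, and the cortex was trimmed from a coronal slice before RNA isolation. TAAR5-KO mice are a knockout of the trace amine-associated receptor TAAR5, and no other allele or agent was named for either group. The sources used here do not tie a library to an animal or a sex, so the libraries are named NK1 to NK6 (TAAR5-KO) and NK7 to NK12 (WT).

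In glycolysis, glucose enters the cell through GLUT carriers, is phosphorylated by hexokinase, split by aldolase into triose phosphates and oxidised to pyruvate. Pyruvate is either reduced to lactate, which crosses membranes through monocarboxylate transporters, or is imported into mitochondria and converted to acetyl-CoA by the pyruvate dehydrogenase complex, which the PDK kinases switch off. In the brain many steps have 2 or more isoforms with a cell bias, and the bulk values do not separate these cells: Aldoc, Slc2a1, Slc16a1 and Pygm transcripts are abundant in glia or vessels, whereas Eno2, Slc2a3 and Slc16a7 transcripts are neuronal.

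Since isoforms of 1 step are compared below, the closeness of their transcripts decides whether reads of 100 bases can be told apart. Over the coding sequences of GRCm39, the 9 isoform pairs compared were 64.5% (Slc16a1 and Slc16a7) to 77.3% (Pygm and Pygb) identical. No pair shared an identical window of 100 bases. Aldoc (chromosome 11, 78213794 to 78218607, plus strand) and Aldoa (chromosome 7, 126394406 to 126399923, minus strand) were 75.9% identical, and the stretch at coding bases 484 to 543 shows how they differ, with the 6 bases that are not shared in capitals.
Aldoc: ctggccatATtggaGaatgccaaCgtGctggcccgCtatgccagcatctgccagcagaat
Aldoa: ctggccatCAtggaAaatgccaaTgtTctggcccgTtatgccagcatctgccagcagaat
The glycogen phosphorylases Pygm (chromosome 19, 6434429 to 6448489, plus strand) and Pygb (chromosome 2, 150628655 to 150673678, plus strand) held the longest identical run of any pair, 62 bases, of which coding bases 865 to 924 are shown. The stretch is coding sequence in both genes and is shorter than a read.
Pygm and Pygb: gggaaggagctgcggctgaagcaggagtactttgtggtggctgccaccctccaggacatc

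Some of the genes have copies elsewhere in the genome, such as processed pseudogenes. For 24 of the 35 genes no coding window of 100 bases occurred a second time in GRCm39. Every coding window of Gapdh, Pgk1 and Pgam1 had at least 1 exact copy elsewhere, and so had 69.2% of the windows of Eno1 and 40.0% of those of Mpc1. The share was 15.2% for Pdhb, 11.7% for Ldhb, 10.6% for Pkm, 8.68% for Gpi1, 2.44% for Ldha and 1.75% for Tpi1. The window of Gapdh (chromosome 6, 125138678 to 125143430, minus strand) at coding bases 742 to 841 is printed because it had the most copies, 40 outside the gene.
Gapdh: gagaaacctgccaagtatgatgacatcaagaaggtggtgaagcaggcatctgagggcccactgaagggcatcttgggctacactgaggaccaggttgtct
How reads with several places in the genome were counted is not given in the sources used here, so the levels of these genes, and Gapdh, Pgk1, Pgam1 and Eno1 above all, are uncertain. The features at the copies of Gapdh received at most 5 counts in any library.

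The libraries held 11269915 to 34824450 counts, of which 1819907 to 6399188 lay outside ribosomal RNA features and 5156 to 30532 fell on the 35 genes. Levels are given as counts scaled to 1000000 per library (CPM), normalised by the trimmed mean of M-values (TMM), a scaling that assumes that most genes do not differ. The TMM factors ran from 0.375 to 2.47, and 5 libraries (NK1, NK2, NK3, NK9 and NK10) were under 0.7. A count of 3 in a library corresponded to 0.0679 to 0.362 CPM. Taar5, the gene named in the genotype, had 2, 3, 2, 1, 2 and 6 counts in NK1 to NK6 and 0, 1, 0, 0, 2 and 0 in NK7 to NK12. The counts are few and were not tested. They run against the labels, with 1 to 6 in the libraries labelled TAAR5-KO and 0 to 2 in those labelled WT. Which part of Taar5 is deleted in this line is not given in the sources used here, and reads from a part that is kept would check nothing, so genotypes are given as labelled throughout. The p-values set a difference or a relation against the variation between these libraries.

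**Figure D1:**
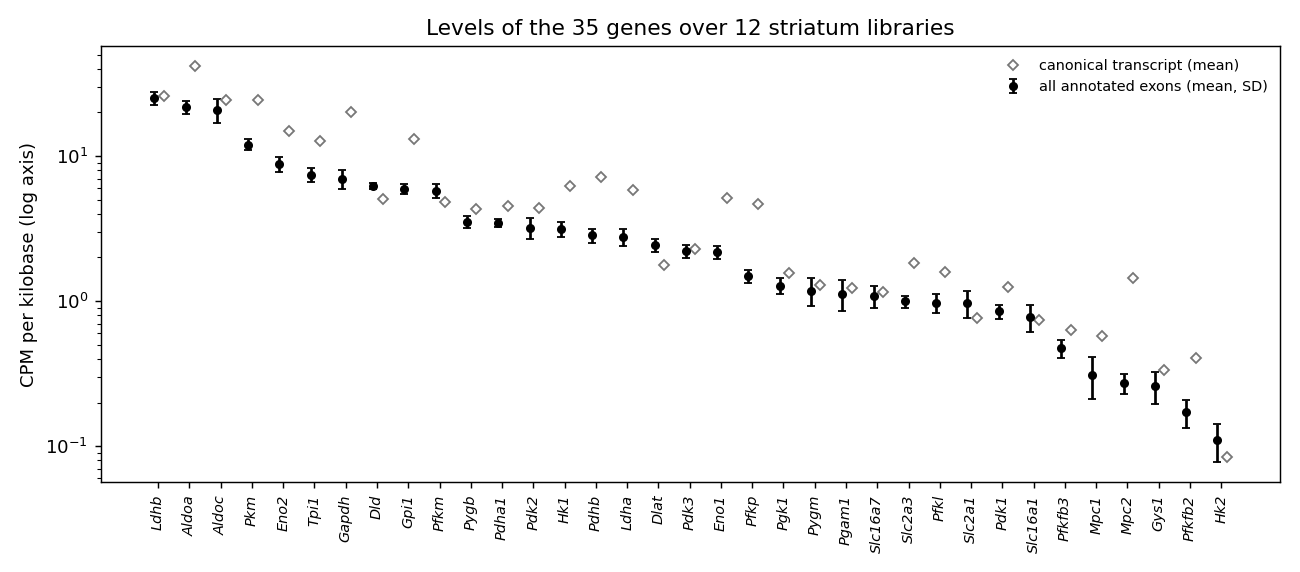
Mean level of each gene over 12 libraries in CPM per kilobase (log axis), with the SD over libraries, divided by the length of all annotated exons (filled circles) or of the canonical transcript (open diamonds). Ldhb, Aldoa, Aldoc and Pkm lead on both lengths and Hk2 is lowest on both.

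The order of the levels was led by the aldolases, lactate dehydrogenase B and pyruvate kinase. Per kilobase of annotated exon and over all 12 libraries, Ldhb, the subunit of lactate dehydrogenase typical of oxidative tissue, had 25.1 ± 2.69 CPM per kilobase (SD, n = 12). Aldoa had 21.8 ± 2.35 and Aldoc 20.8 ± 3.85 CPM per kilobase, and each was the higher of these aldolases in 6 of 12 libraries. Pkm, pyruvate kinase of muscle and brain, followed with 12.0 ± 1.02 CPM per kilobase and lay under Aldoc in 12 of 12 libraries. The neuronal enolase Eno2 came next with 8.79 ± 1.08 CPM per kilobase. At the other end were the mitochondrial pyruvate carrier subunits Mpc1 (0.311 ± 0.0988) and Mpc2 (0.273 ± 0.0427), glycogen synthase Gys1 (0.260 ± 0.0654), Pfkfb2 (0.172 ± 0.0379) and the insulin-responsive hexokinase Hk2 (0.110 ± 0.0326), all in CPM per kilobase. The length used matters for genes with many annotated exons: per kilobase of the canonical transcript, Aldoa was first with 41.9 CPM per kilobase, and Gapdh stood in place 5 in place of 7. On that length Aldoc had 24.3 and Pkm 24.5 CPM per kilobase, and Aldoc exceeded Aldoa in 0 of 12 libraries. The even order of the aldolases and the order of Aldoc over Pkm therefore hold for the annotated exons only. Many neighbours in the order did not differ beyond their spread, such as Dld and Gpi1, where each was the higher in 6 of 12 libraries.

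The comparison of labelled genotypes asks whether loss of TAAR5 shifts the striatal transcriptome. Among the 35 genes, the glycogen phosphorylase Pygb passed the test, lower in the libraries labelled TAAR5-KO, and no gene passed it in the other direction. Of all 13902 features, 1.65% were called (likelihood ratio test of edgeR, Benjamini-Hochberg adjusted p under 0.1) and 0.691% were called lower, so 1 call among 35 genes is near the share over all features. With the quasi-likelihood test 0 members were called, against 0.453% of all features, and 6 members had an unadjusted p under 0.05 with either test. These 6 were Slc2a1, Gpi1, Pfkl, Aldoc, Gapdh and Pygb, all lower, and 5.54% of all features were lower at that level. In either direction, 17.1% of the 35 genes and 11.9% of all features had such a p by the likelihood ratio test. Fitted log2 fold changes (TAAR5-KO over WT) were below 0 for 26 of the 35 genes and for 51.1% of all features. Their median was -0.12, and the median over all features was -0.01. The 35 genes are not independent of each other, and no test was made of the median.

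The 35 genes also differed from the other features in GC content, whose part in the shift was not tested across genes. The median GC content of the exons was 52.2% for the 35 genes and 48.4% for all features tested, and 21 of the 35 lay above the latter. With the trend of each library on GC content removed, the median log2 fold change of the 35 genes was -0.04 and that of all features 0.01, 25 genes were below 0, and 1 gene, Aldoc, had an unadjusted p under 0.05. Of the 26 genes below 0 in the reported test 21 remained below 0, while Slc2a3, Hk1, Aldoa, Eno1 and Pkm turned above it and Slc16a1, Slc16a7, Pdha1 and Dld turned below it.

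**Figure D2:**
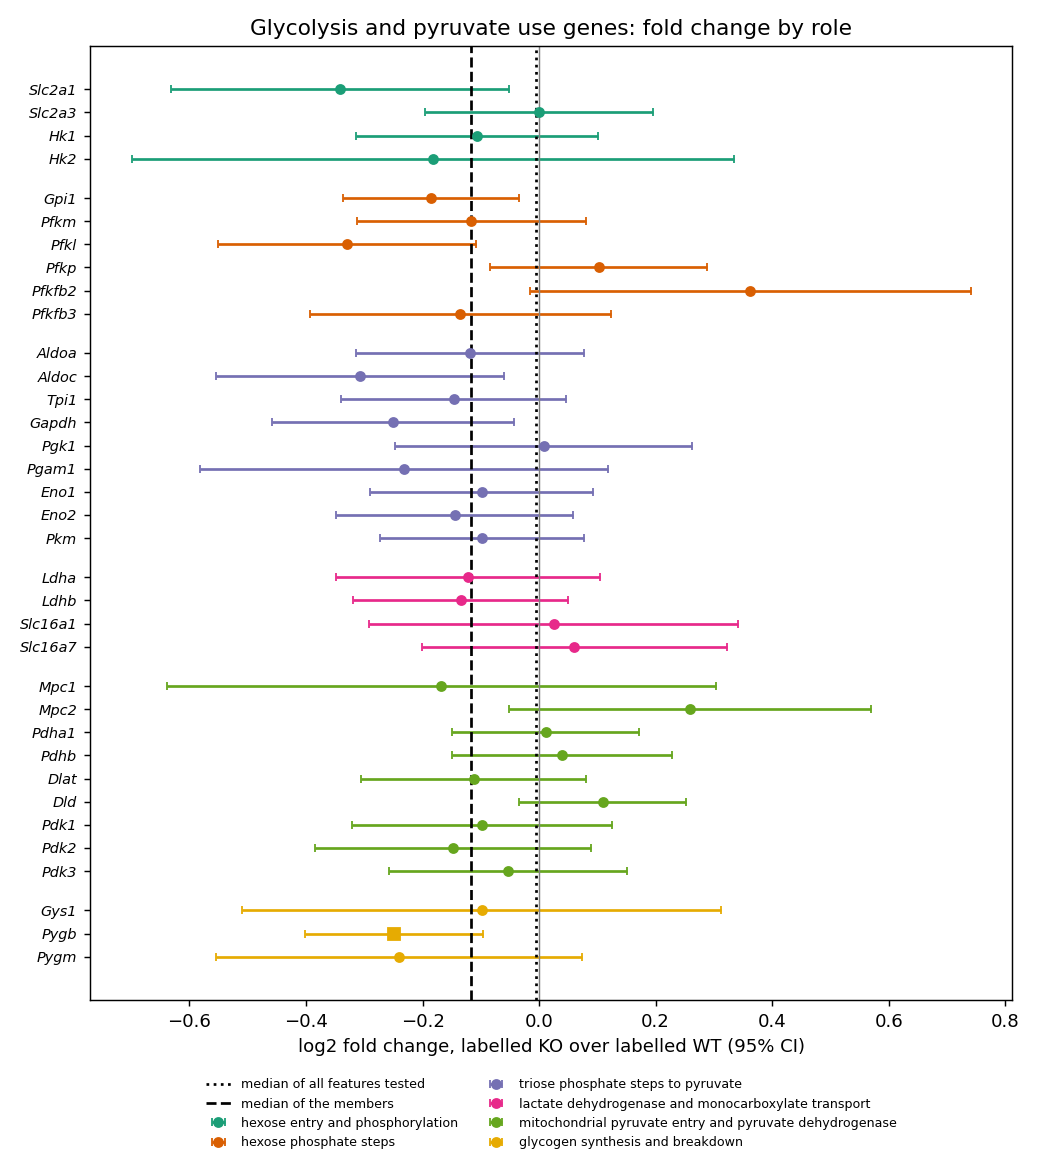
Fitted log2 fold change of each gene (TAAR5-KO over WT as labelled) with its 95% confidence interval, grouped and coloured by role, with the square for the gene with an adjusted p under 0.1 (Pygb). The dashed line is the median of the 35 genes (-0.12) and the dotted line that of all features tested (-0.01), and 26 of the points lie below 0.

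Among the genes of glucose entry and phosphorylation, 4 of 4 had fitted values below 0 and 0 were called. Slc2a1, which encodes GLUT1 of the blood-brain barrier and astrocytes, had 2.07, 2.19, 2.76, 3.85, 3.23 and 3.71 CPM in NK1 to NK6. In NK7 to NK12 it had 3.79, 4.43, 3.51, 3.86, 3.74 and 3.87 CPM. The 3 lowest values belong to NK1, NK2 and NK3, whose TMM factors are under 0.7. The WT libraries with TMM factors under 0.7, NK9 and NK10, were not low in this way, at 3.51 and 3.86 CPM. Apart from NK1, NK2 and NK3, the libraries of both labels overlap between 3.51 and 3.85 CPM. The log2 fold change was -0.34 ± 0.15 (SE), at an edgeR adjusted p of 0.305, and -0.13 without the 5 libraries with low TMM factors. Slc2a3, the neuronal GLUT3, lay at 6.37 to 8.52 CPM in the TAAR5-KO libraries and at 6.03 to 8.11 in WT, a log2 fold change of -0.00070 ± 0.10 (SE) whose sign turned under several settings. Hk1, the main hexokinase of brain, had 22.3 to 28.8 and 23.8 to 33.9 CPM, with overlapping groups. Hk2 had at most 28 counts in a library and its 95% interval, from -0.70 to 0.33 on the log2 scale, spans changes in either direction, so that a difference was not detectable at this depth.

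Of the 6 genes of the hexose phosphate steps, 4 were below 0 and 2 above, with 0 called. Pfkl, the liver-type subunit of phosphofructokinase, was at 5.36, 6.57, 6.01, 5.77, 5.67 and 5.43 CPM in NK1 to NK6. In NK7 to NK12 its level was 5.91, 6.61, 7.23, 7.60, 8.14 and 8.03 CPM. The WT library NK7 lies among the TAAR5-KO values and the other 5 WT libraries lie above all of them. The log2 fold change was -0.33 ± 0.11 (SE), at an edgeR adjusted p of 0.139, and without NK7 the adjusted p was 0.0606, the one change of library that brought Pfkl past the threshold. The muscle-type subunit Pfkm was at 16.6 to 21.1 CPM in TAAR5-KO and 17.6 to 23.2 in WT, with 10.2% of its exons overlapped by another feature on the same strand. The platelet-type subunit Pfkp was at 19.3 to 22.7 CPM in TAAR5-KO and 15.8 to 22.9 in WT. Gpi1, which interconverts glucose and fructose 6-phosphates, was at 34.2 to 38.8 CPM in TAAR5-KO and 38.4 to 42.4 in WT, so that the groups meet at 1 library of each, with a log2 fold change of -0.18 ± 0.077 (SE), at an edgeR adjusted p of 0.279.

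Pfkfb2 and Pfkfb3 make and break down fructose 2,6-bisphosphate, the activator of phosphofructokinase. Pfkfb2 had the highest fitted value of the 35 genes, 0.36 ± 0.19 on the log2 scale (SE), at an edgeR adjusted p of 0.444, with 1.14, 1.39 and 1.55 CPM as the lowest, median and highest TAAR5-KO values and 0.844, 0.955 and 1.64 in WT. The groups overlap, its counts were 7 to 57 in a library, and 17.4% of its exons are shared with another feature on the same strand. Pfkfb3, the isoform induced by hypoxia, was at 2.52 to 4.00 CPM in TAAR5-KO and 3.35 to 4.34 in WT.

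**Figure D3:**
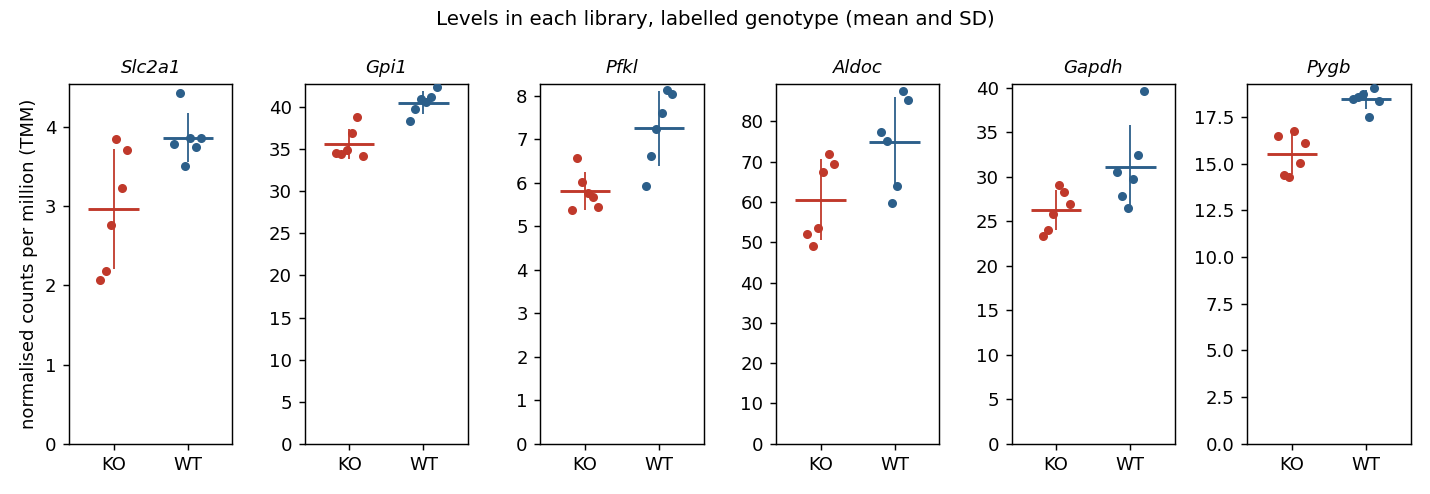
Level in each library (points), with mean and SD (line and bar), of the 6 genes with an unadjusted p under 0.05, in normalised CPM on axes that start at 0, for libraries labelled TAAR5-KO (red) and WT (blue). The labelled groups are apart for Pygb (14.3 to 16.7 against 17.5 to 19.0) and overlap for the other 5 genes.

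From the aldolases to pyruvate kinase, 8 of 9 genes were below 0, 1 above and 0 called. Aldoc, the aldolase of astrocytes and Purkinje cells, had 52.0, 49.1, 53.6, 67.4, 71.8 and 69.4 CPM in NK1 to NK6. Its values in NK7 to NK12 were 77.3, 75.1, 59.8, 64.04, 87.5 and 85.4 CPM. Within each label the libraries with TMM factors under 0.7 are the lowest, 49.1 to 53.6 in TAAR5-KO and 59.8 to 64.04 in WT, and the others are at 67.4 to 71.8 and 75.1 to 87.5. The TAAR5-KO values therefore lie under the WT values inside either set of libraries, while the groups overlap when the sets are joined. The log2 fold change was -0.31 ± 0.13 (SE), at an edgeR adjusted p of 0.266, and -0.24 with adjusted p = 0.162 when the low TMM factor was a covariate, which was chosen after the values were seen.

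Gapdh, the dehydrogenase of the triose step often used as a reference transcript, was at 23.4, 24.1, 25.8, 29.0, 28.4 and 27.0 CPM in NK1 to NK6. In NK7 to NK12 it was at 30.5, 27.9, 26.5, 29.8, 32.5 and 39.7 CPM. The highest value is that of NK12, and 3 TAAR5-KO libraries lie among the WT values. The log2 fold change was -0.25 ± 0.11 (SE), at an edgeR adjusted p of 0.287. Aldoa, the ubiquitous aldolase, was at 52.2 to 72.4 CPM in TAAR5-KO and 57.8 to 73.3 in WT, and Pkm at 53.7 to 62.7 and 55.3 to 70.5, with 15.3% of the exons of Pkm shared with another feature on the same strand. Tpi1, triose phosphate isomerase, was at 17.5 to 21.7 CPM in TAAR5-KO and 18.4 to 24.6 in WT. The ubiquitous enolase Eno1 was at 9.81 to 13.6 CPM in TAAR5-KO and 10.9 to 13.8 in WT, and Eno2 at 33.2 to 43.0 and 38.6 to 54.6. The low-count members Pgk1, phosphoglycerate kinase (2.11 to 3.40 CPM against 2.60 to 3.50), and Pgam1, phosphoglycerate mutase (1.17 to 2.85 against 1.97 to 3.01), overlapped as well.

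Of the 4 genes of lactate exchange, 2 were below 0 and 2 above, with log2 fold changes between -0.13 and 0.06. Ldha, the subunit that favours lactate formation, was at 6.58 to 10.1 CPM in TAAR5-KO and 8.04 to 10.7 in WT. Ldhb was at 33.5 to 40.6 CPM in TAAR5-KO and 34.9 to 49.8 in WT. Slc16a1 (MCT1, of vessels and glia) was at 2.60 to 4.84 CPM in TAAR5-KO and 2.77 to 4.70 in WT. Slc16a7 (MCT2, the neuronal monocarboxylate transporter) ranged from 8.68 in NK4 to 17.0 in NK3 among the TAAR5-KO libraries and from 10.7 to 13.7 in WT, a wider range than in WT around a similar level.

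Of the 9 genes of mitochondrial pyruvate entry and pyruvate dehydrogenase, 5 were below 0 and 4 above, with 0 called. The catalytic subunit genes of the complex had ranges that overlapped between the labels. Pdha1 (E1 alpha) was at 11.8 to 14.4 CPM in TAAR5-KO and 11.8 to 13.8 in WT, and a feature on the opposite strand overlaps 16.2% of its exons. Pdhb (E1 beta) was at 9.82 to 12.1 CPM in TAAR5-KO and 7.67 to 12.2 in WT. Dlat (E2) was at 10.3 to 13.9 and 10.998 to 13.3 CPM. Dld, the E3 subunit shared with other dehydrogenase complexes, was at 22.8 to 24.6 CPM in TAAR5-KO and 21.3 to 23.0 in WT. The groups of Dld overlap at NK4, NK5 and NK10, and its log2 fold change was 0.11 ± 0.073 (SE), at an edgeR adjusted p of 0.586. That value was -0.04 with the GC trend removed, Dld having 39.3% GC. Mpc2 was at 1.80 to 2.45 CPM in TAAR5-KO and 1.38 to 2.15 in WT, and Mpc1 had 2 to 33 counts in a library and an overlap of 23.3% with a feature on the opposite strand. The kinases were at 5.06 to 7.70 and 6.29 to 7.81 CPM (Pdk1), 8.29 to 11.8 and 7.89 to 12.02 CPM (Pdk2) and 4.92 to 6.51 and 5.32 to 6.87 CPM (Pdk3) in TAAR5-KO and WT. Pdk1, Pdk2 and Pdk3 had log2 fold changes of -0.10, -0.15 and -0.05, with adjusted p of 0.677 to 0.897 (edgeR).

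Of the 3 glycogen genes, all were below 0. Pygb, the brain isoform of glycogen phosphorylase, which releases glucose 1-phosphate from glycogen, had 16.5, 14.4, 14.3, 16.7, 15.0 and 16.1 CPM in NK1 to NK6. In NK7 to NK12 it had 18.5, 18.6, 18.7, 17.5, 19.0 and 18.3 CPM. Every WT value lies above every TAAR5-KO value, which held for this 1 of the 35 genes and for 1.01% of all features. The log2 fold change was -0.25 ± 0.078 (SE), at an edgeR adjusted p of 0.0917, that is a fold of 0.842 with a 95% interval of 0.757 to 0.936. The call held with DESeq2 (adjusted p = 0.0546), with filterByExpr (0.0860) and with the filter on TMM library sizes (0.0801). It was lost with the quasi-likelihood test (adjusted p = 0.150), and without any one of NK1, NK2, NK3, NK5, NK6, NK7, NK8, NK9, NK10, NK11 or NK12. The call held without NK4 (edgeR adjusted p = 0.0568). Over all the leave-one-out fits the edgeR adjusted p was 0.0568 to 0.260 and the log2 fold change -0.27 to -0.22. With the GC trend removed, the log2 fold change of Pygb was -0.15 (adjusted p = 0.586). The call was also lost with RLE factors, library size only, ribosomal RNA features removed, no filter or the length trend removed. It was lost without the libraries with low TMM factors (edgeR adjusted p = 0.536) and with the low TMM factor as a covariate (0.131). Pygm, the muscle isoform that astrocytes also make, was at 2.27 to 4.90 CPM in TAAR5-KO and 3.39 to 4.62 in WT, with NK1, NK2 and NK3 lowest. The WT libraries with low TMM factors, NK9 and NK10, had 3.94 and 4.34 CPM of Pygm. Its log2 fold change was -0.24 ± 0.16 (SE), at an edgeR adjusted p of 0.582, and 0.0015 without the libraries with low TMM factors. Gys1 was at 0.812 to 1.92 and 0.767 to 1.48 CPM.

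Cell type markers moved beside these values. Of 18 astrocyte markers 17 were below 0 and 3 were called lower, with a median log2 fold change of -0.26 and sums of 1335 to 1487 CPM in TAAR5-KO against 1455 to 1677 in WT. All 9 microglia markers tested were below 0, with 3 called lower. Of all features 0.691% were called lower, and with the quasi-likelihood test 1 astrocyte marker and 0 microglia markers were called. Of 12 spiny neuron markers 11 were above 0, with 0 called and a median of 0.25, and of 11 pan-neuronal markers 9 were below 0. For mature oligodendrocytes 10 of 12 markers were below 0 with 0 called, and for endothelium 6 of 12. Choroid plexus markers summed to 1.38 to 465 CPM in TAAR5-KO and 2.38 to 284 in WT, and those of cortical pyramidal neurons to 31.5 to 103 and 37.0 to 116. Ependymal markers summed to 1.30 to 7.38 and 2.65 to 5.26 CPM, blood markers to 6.40 to 17.1 and 5.15 to 13.7 with 1 of 5 called higher (0 with the quasi-likelihood test), and skeletal muscle markers to at most 1.33 CPM. Fewer cells of a type and less RNA per cell cannot be told apart in these bulk libraries, and the part of the markers in the results was not tested.

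Because sums of cell markers differ between libraries, each gene was also set against the summed astrocyte and the summed pan-neuronal markers on the log2 scale, 70 relations in all, computed after the values were seen. Slc16a7 followed the pan-neuronal sum most closely (Pearson's r = 0.846, permutation p = 0.00051, adjusted over 70 relations 0.0357, and Spearman's rho = 0.804, permutation p = 0.0025, adjusted 0.0672; n = 12). The relation held within TAAR5-KO (r = 0.953) and WT (r = 0.715), and without the 2 libraries farthest from the median sum (r = 0.705), and 1.54% of all features had an r as high. For Hk1 the values were r = 0.781 (permutation p = 0.0028, adjusted 0.0983) and rho = 0.832 (permutation p = 0.0013, adjusted 0.0672), with r = 0.660 and 0.969 within the labels and 0.738 without the 2 farthest libraries, and 3.09% of all features had an r as high. For Pfkp they were r = 0.668 (permutation p = 0.0166, adjusted 0.290) and rho = 0.804 (permutation p = 0.0029, adjusted 0.0672), with r = 0.900 and 0.903 within the labels and 0.909 without the 2 farthest libraries, and 6.28% of all features had an r as high. Pygb was the gene nearest to the astrocyte sum, r = 0.676 (permutation p = 0.0149, adjusted 0.290) and rho = 0.713 (permutation p = 0.0120, adjusted 0.210), or r = 0.829 without the 2 farthest libraries. The astrocyte sum is mostly 1 transcript, that of the glutamate transporter Slc1a2, with 64.9% of the sum and a log2 fold change of -0.04. The relation of Pygb to the astrocyte sum did not hold within labels, where r was -0.087 in TAAR5-KO and 0.369 in WT. Over all 12 libraries, 0.784% of all features had an r with this sum as high as that of Pygb. The pan-neuronal sum is weighted to Snap25, with 29.97% of the sum, and Map2, with 29.02%, so it does not weigh its 11 markers evenly. Of these markers 9 were below 0, while the median sum was 1191 CPM in TAAR5-KO and 1116 in WT. Relations to the sum without Snap25 and Map2 were not tested. The pan-neuronal sum was lowest in NK4 (933 CPM) and highest in NK12 (1355 CPM), and so was the cortical pyramidal sum (31.5 and 116 CPM). The spiny neuron sum was 529 CPM in NK4 and 385 CPM in NK12. Neurons of striatum and of cortex left in the slice cannot be told apart in the pan-neuronal sum, and their parts in these relations were not tested. All genes of a library share its depth and scaling, so these relations describe the 12 libraries.

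**Figure D4:**
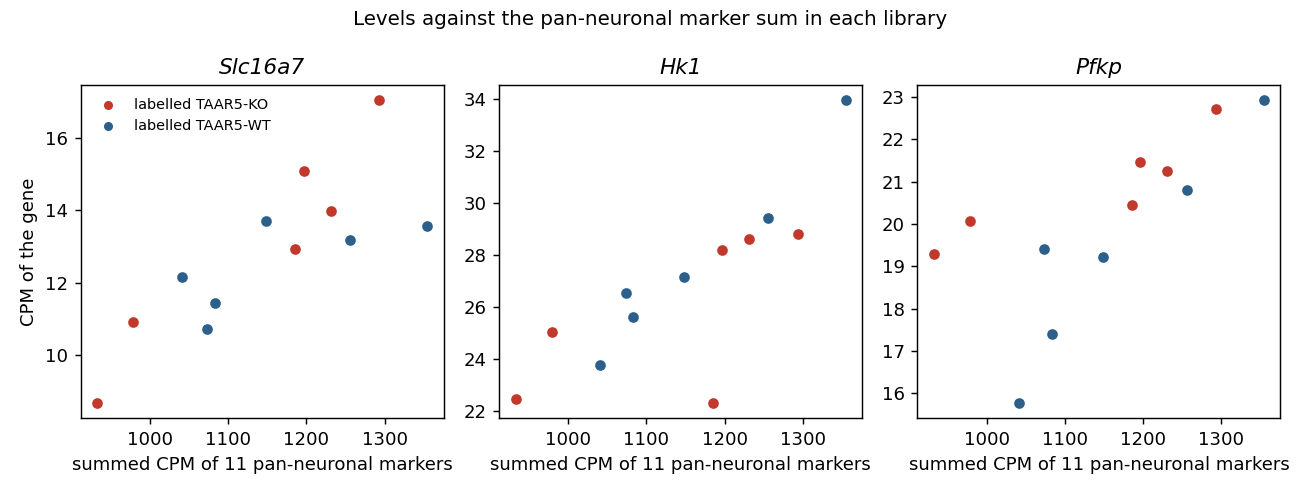
Level of Slc16a7, Hk1 and Pfkp in CPM (vertical axes) against the summed CPM of 11 pan-neuronal markers (horizontal axes) in each library, with TAAR5-KO in red and WT in blue. The lowest sum, 933 CPM in NK4, goes with the lowest Slc16a7 level, 8.68 CPM. Snap25 makes up 29.97% of the summed CPM and Map2 29.02%.

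The ratio of 2 isoforms within a library does not depend on its scaling, and 9 such ratios of counts were compared between the labels by an exact permutation test, whose smallest possible two-sided p is 0.00216. The ratio of the phosphofructokinase subunits Pfkp and Pfkm passed the threshold of 0.1 after adjustment over the 9 ratios, and the other 8 did not. The log2 ratio Pfkp/Pfkm had 0.011, 0.196 and 0.285 as its lowest, median and highest values in TAAR5-KO and -0.22, -0.035 and 0.107 in WT. The labels overlap in part, with means of 0.17 ± 0.11 and -0.06 ± 0.11 (SD, n = 6). The difference was 0.23 (two-sided exact permutation p = 0.0108, adjusted p = 0.0974). It was past the threshold in 5 of 12 leave-one-out tests, with adjusted p of 0.0390 to 0.195, and was lost without NK1, NK3, NK5, NK6, NK10, NK11 or NK12. The exons of Pfkp have 47.2% GC and those of Pfkm 53.3%, and the difference between their fitted log2 fold changes was 0.22 in the reported test and 0.14 with the GC trend removed.

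The ratio Pfkfb3/Pfkfb2 was 1.12 to 1.42 in TAAR5-KO and 1.20 to 2.28 in WT on the log2 scale, a difference of -0.52 (two-sided exact permutation p = 0.0411, adjusted p = 0.185). Slc2a1/Slc2a3 was -1.94 to -0.78 in TAAR5-KO and -1.20 to -0.61 in WT, with NK1, NK2 and NK3 lowest, a difference of -0.44 (two-sided exact permutation p = 0.0736, adjusted p = 0.221). Aldoc/Aldoa differed by -0.19 (two-sided exact permutation p = 0.208, adjusted p = 0.468). The ratios Eno1/Eno2 (0.07), Slc16a1/Slc16a7 (-0.08), Pygm/Pygb (-0.06), Ldha/Ldhb (0.00065) and Hk2/Hk1 (-0.14) had differences of the log2 ratio within the spread between libraries, and adjusted p of 0.847 to 0.996 by the exact permutation test. The isoform with more counts was the same in all 12 libraries for several steps on both lengths: per kilobase, Eno2 exceeded Eno1, Ldhb exceeded Ldha, Pygb exceeded Pygm, Hk1 exceeded Hk2 and Pfkfb3 exceeded Pfkfb2 in 12 of 12 libraries. The order of the enolases is uncertain, because 69.2% of the coding windows of Eno1 had an exact copy elsewhere and 0% of those of Eno2.

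**Figure D5:**
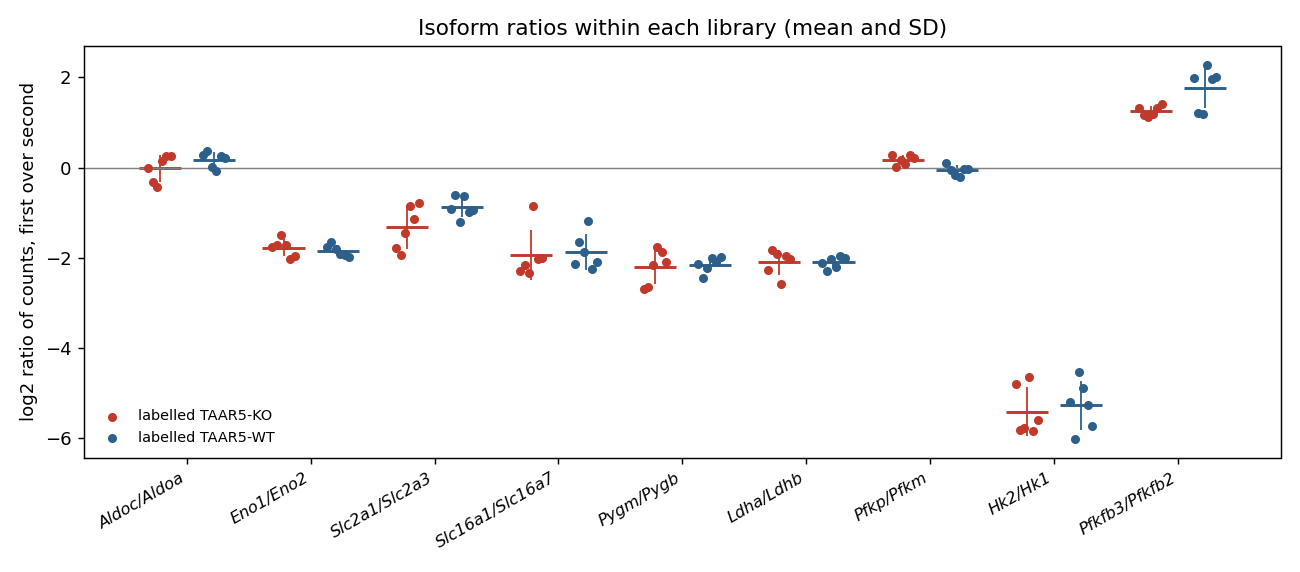
Log2 ratio of the counts of the first over the second isoform (vertical axis) in each library for 9 isoform pairs, with TAAR5-KO in red and WT in blue, lines at the means and bars for the SD. The Pfkp/Pfkm means are 0.17 and -0.06, and the other pairs overlap more widely or have a wider spread.

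The rest of the pathway showed 0 called genes in each of 5 lists. Among all features 1.65% were called and 51.1% were below 0. With 11 to 22 genes tested in a list, 0 calls is near the share called over all features. Of 11 other isoforms of the same enzymes that were tested, 6 were below 0, and the remaining 14 of the list were under the filter. Of 22 genes of pyruvate use and the malate, aspartate and glycerol phosphate shuttles, 18 were below 0 (median log2 fold change -0.10). For glycogen and sugar phosphates 14 of 21 were below 0 (median -0.06), for the pentose phosphate pathway and gluconeogenesis 10 of 14 (median -0.19), and for regulators such as Hif1a 9 of 15 (median -0.03). The smallest adjusted p in these lists was that of Tkt, transketolase of the pentose phosphate pathway, which is named here after its values were seen: its log2 fold change was -0.27 ± 0.087 (SE), at an edgeR adjusted p of 0.109.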

How the data were processed

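RNA from 12 striata was depleted of ribosomal RNA (the labels call the molecule polyA RNA) and sequenced as directional single-end reads. Per the study's methods and processing notes, the authors trimmed reads with cutadapt 4.1, aligned them to GRCm39 (GENCODE M35) with STAR 2.7.11b and deposited whole-number counts per gene from featureCounts 2.0.6, not normalised, with each gene's merged exon length. The strand setting is not given in the sources used here. A further 12 columns of counts were not used.

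Features with at least 0.5 CPM in at least 3 libraries were fitted in edgeR 4.0.16 (R 4.3.3) with TMM factors and a likelihood ratio test, the study's test. The quasi-likelihood test, DESeq2 1.42.0, other scalings, filters and trends, and the omission of each library, were alternatives. DESeq2 gave no adjusted p for 6 members. Isoform ratios used log2 of counts plus 0.5, with exact permutation tests (scipy 1.17.1), and correlations 100000 permutations. The fits were tested on simulated data. Windows of 100 bases from the canonical transcripts of GENCODE M39 were searched in GRCm39.

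All 35 members are named, and of other pathway genes those called, unless the text says otherwise. The members, lists and tests were chosen with earlier results of these data known. Marker genes of oligodendrocytes, microglia and spiny neurons are not reported one by one.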

Additional observations from a re-analysis of the deposited data

Results flagged for a closer look

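In 70 groups of 6 libraries (35 genes in each labelled genotype) and 18 groups of isoform ratios, 6 held a library whose gap to the nearest other library was too large a part of the group's range by Dixon's 95% limit. Chance marks about 1 in 20 such groups. In WT, the library NK10 was high for Pgk1 (3.50 CPM, the others 2.60 to 2.93) and Pdk3 (6.87 CPM, the others 5.32 to 5.79). NK12 was high for Eno2, 54.6 CPM with the others at 38.6 to 44.1. NK9 was low for Pdhb (7.67 CPM, the others 11.03 to 12.2) and Gys1 (0.767 CPM, the others 1.30 to 1.48). Among the TAAR5-KO libraries, NK4, which also had the highest choroid plexus sum (465 CPM) and the lowest pan-neuronal sum (933 CPM), had a log2 ratio Slc16a1/Slc16a7 of -0.84, with the others at -2.34 to -2.001.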

How the results depend on the processing

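Counting precision is set by 5156 to 30532 counts on the 35 genes in a library, and genes such as Hk2, Mpc1, Gys1 and Pfkfb2, with under 10 counts in some libraries, could show only large differences. The number of features called was 229 in the reported test, 63 with the quasi-likelihood test, 7 with library size as the only scaling, 93 with no filter, 108 at an adjusted p under 0.05, 86 with the GC trend removed and 80 without the 5 libraries with TMM factors under 0.7, a setting chosen after seeing the data. It ran from 85 (without NK11) to 415 (without NK4) over the leave-one-out fits. The number of members called was 1 in the reported test, with DESeq2, filterByExpr and the CPM filter on TMM library sizes, and 0 with the quasi-likelihood test, library size only, RLE size factors, ribosomal RNA features removed, no filter, an adjusted p under 0.05, the length trend or the GC trend removed, without the libraries with low TMM factors, and with a low TMM factor as a covariate, also chosen after seeing the data. It was 0 to 1 when 1 library was left out. The isoform ratios called numbered 1, then 0 at an adjusted p under 0.05 and 0 to 2 when 1 library was left out. The causes were not tested, except that a stricter threshold calls less by construction.

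With library size only, all features together had a median log2 fold change of -0.49, and these genes turned lower: Pfkp -0.44, Pfkfb2 -0.0514, Pgk1 -0.43, Slc16a1 -0.39, Slc16a7 -0.51, Mpc2 -0.23, Pdha1 -0.47, Pdhb -0.45 and Dld -0.38. With the GC trend removed the sign turned for Slc2a3 (0.0215), Hk1 (0.00457), Aldoa (0.00214), Eno1 (0.00120), Pkm (0.00950), Slc16a1 (-0.0355), Slc16a7 (-0.11), Pdha1 (-0.0237) and Dld (-0.0387). Slc2a3 also turned with the quasi-likelihood test (0.00941), DESeq2 (0.00796), RLE factors (0.00526), filterByExpr (0.000495) and the length trend removed (0.00758). Pgk1 turned with the quasi-likelihood test (-0.0105), ribosomal RNA removed (-0.0133) and no filter (-0.0308), and Pdha1 with ribosomal RNA removed (-0.00152) and no filter (-0.0109). Without the libraries with low TMM factors, Slc16a7 (-0.15), Pdk3 (0.00059) and Pygm (0.00150) turned. Leaving out 1 library gave log2 fold changes of -0.26 to 0.00400 for Gys1, -0.00571 to 0.0387 for Pdha1, -0.00719 to 0.0774 for Pdhb, -0.0570 to 0.0693 for Pgk1, -0.0809 to 0.106 for Slc16a1, -0.0133 to 0.148 for Slc16a7 and -0.0386 to 0.0504 for Slc2a3. It gave log2 ratio differences of -0.294 to 0.00829 for Hk2/Hk1, -0.0553 to 0.0982 for Ldha/Ldhb, -0.143 to 0.0405 for Pygm/Pygb and -0.299 to 0.0573 for Slc16a1/Slc16a7. No paired analysis was possible because the columns number the libraries from NK1 to NK12 and the groups share no number.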
